A study of Homo sapiens with 7 samples.

Results

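The transcription factors that build and maintain the endoderm and the pancreas were examined at the level of H3K4me1, monomethylated lysine 4 of histone H3. The 8 genes were GATA4, GATA6, HNF4A, FOXA1, FOXA2, FOXA3, PDX1 and SOX9, of 20007 protein-coding genes in the annotation (GENCODE release 44). For each gene, the H3K4me1 intervals that overlapped its gene record plus 50 kb on either side were taken. This gave 28 of the 64843 intervals of the NC list and 51 of the 92135 intervals of the KMT2D-KD list. An interval is a run of bases with more ChIP fragments than the input library led the authors' peak caller to expect. The cells were SW1990, an established human pancreatic cancer line. NC cells carried a negative control shRNA, and KMT2D-KD cells carried an shRNA against KMT2D, a histone methyltransferase that deposits H3K4me1. KMT2D, the transcription factor EBF2 and H3K4me1 were profiled by ChIP-seq in both conditions, which gave 6 ChIP libraries, and 1 input library completed the 7 samples. The authors describe SW1990 lines with stable KMT2D knockdown, but whether these were the cells used for ChIP-seq was not stated. The number of clones was not given. Each target was sequenced once per condition, so each difference compares 2 libraries, has no replicate check and carries no p-value.

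H3K4me1 marks enhancers and the flanks of promoters, and it is found at enhancers that are active as well as at those that are only poised. GATA4 and GATA6 are zinc finger factors, and FOXA1, FOXA2 and FOXA3 are forkhead factors. Members of both families are known as pioneer factors, which bind their sites in closed chromatin and open it in the early endoderm. HNF4A is a nuclear receptor that maintains gene programs of liver, gut and pancreas. PDX1, a homeodomain factor, is required for the pancreas to form. SOX9, an HMG box factor, marks pancreatic progenitors and later the ducts. An interval of H3K4me1 in the neighbourhood of a gene is not a measure of its expression, and expression was not analysed here.

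The sequences below, all from the plus strand of hg38, show the DNA under the intervals that the descriptions turn on. The first 2 are the NC summits of the shared interval with the highest −log10 q at HNF4A and SOX9. A shared interval overlapped an interval of the other list by at least 1 base. The next 3 are the KMT2D-KD summits of the interval with the highest −log10 q that the NC list lacked at GATA6, HNF4A and SOX9. The last 3 hold letters recognised by a member's own family or by HNF4, and were chosen with their letters known. Letters of these motifs are in capitals: AGATAA for GATA factors and CAAAGTC for HNF4, on either strand.
HNF4A shared, +51.5 kb, chr20:44407112-44407231: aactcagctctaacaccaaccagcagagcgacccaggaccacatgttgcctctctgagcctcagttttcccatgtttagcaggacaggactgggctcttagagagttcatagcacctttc
SOX9 shared, +13.9 kb, chr17:72134891-72135010: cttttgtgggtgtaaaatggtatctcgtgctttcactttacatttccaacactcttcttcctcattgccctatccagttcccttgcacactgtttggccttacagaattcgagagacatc
GATA6 in KMT2D-KD alone, +57.2 kb, chr18:22226736-22226855: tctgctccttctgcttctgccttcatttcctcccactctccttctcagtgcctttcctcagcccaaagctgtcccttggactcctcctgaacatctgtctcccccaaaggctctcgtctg
HNF4A in KMT2D-KD alone, −31.2 kb, chr20:44324411-44324530: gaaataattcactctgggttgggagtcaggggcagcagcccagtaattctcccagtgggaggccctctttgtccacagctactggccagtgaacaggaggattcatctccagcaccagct
SOX9 in KMT2D-KD alone, −9.42 kb, chr17:72111538-72111657: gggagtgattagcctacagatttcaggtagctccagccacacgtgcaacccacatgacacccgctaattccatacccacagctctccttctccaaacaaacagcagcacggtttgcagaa
GATA6 with a GATA motif, +17.3 kb, chr18:22186786-22186985: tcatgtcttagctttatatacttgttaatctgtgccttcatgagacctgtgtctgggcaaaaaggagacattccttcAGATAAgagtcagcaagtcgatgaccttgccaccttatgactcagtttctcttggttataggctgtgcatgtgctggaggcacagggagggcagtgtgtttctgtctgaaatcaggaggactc
HNF4A with an HNF4 motif, +52.2 kb, chr20:44407829-44408028: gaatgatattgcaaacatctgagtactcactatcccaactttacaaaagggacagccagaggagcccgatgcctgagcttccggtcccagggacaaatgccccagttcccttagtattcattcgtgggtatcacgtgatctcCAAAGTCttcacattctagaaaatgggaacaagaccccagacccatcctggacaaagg
FOXA1 in NC alone with an HNF4 motif, −5.41 kb, chr14:37601412-37601531: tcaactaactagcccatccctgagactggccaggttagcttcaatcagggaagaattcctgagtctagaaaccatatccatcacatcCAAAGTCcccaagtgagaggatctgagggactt
Distances are from the 5′ end, the first base of the gene record, to the summit, and are positive in the direction of transcription. The stretches with an own-family motif are 200 bases long and the others 120 bases. The same letters of the HNF4A interval at +52.2 kb were also within 100 bases of its KMT2D-KD summit at +52.3 kb.

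H3K4me1 covered more of these 8 neighbourhoods in KMT2D-KD than in NC, by about as much as it did around protein-coding genes in general. The 28 NC intervals covered 12.01 kb, or 1.17% of the 1026 kb in the 8 windows, and the 51 KMT2D-KD intervals covered 21.9 kb, or 2.14%. In log2(KMT2D-KD / NC), the number of intervals differed by 0.87, with a 95% counting interval of 0.17 to 1.59 from the exact binomial split of the 2 counts. Without the HNF4A window this was 0.70, and the interval of −0.13 to 1.55 then included 0. With the KMT2D-KD list shortened to the length of the NC list it was 0.48 (−0.26 to 1.23). For comparison, the log2 ratio of interval numbers was 0.51 between the whole lists. Its median was 0.64 over protein-coding windows with intervals in both lists. The counting interval of 0.17 to 1.59 included both values. The covered bases of the 8 windows differed by 0.87 on the same scale, a 1.83-fold ratio, and those of the whole lists by 0.62. Over the 14758 protein-coding windows with intervals in both lists, the median log2 ratio of covered bases was 0.81, with quartiles of 0.37 and 1.36. Over the 5 members with intervals in both lists the median was 0.86. Counting intervals here and below cover counting error only, and intervals of 1 library are not independent replicates.

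The members fell into 3 sets by their H3K4me1. GATA4, GATA6, HNF4A and SOX9 held 27 of the 28 NC intervals and 48 of the 51 KMT2D-KD intervals. FOXA1 had 1 interval in each list, at different places, and FOXA3 had 2 in KMT2D-KD alone. FOXA2 and PDX1 had none in either list, as did 13.4% of all protein-coding windows. The number of intervals was higher in KMT2D-KD at 5 of the 8 genes, equal at 3 and lower at 0, and among all protein-coding windows 67.9% had more intervals in KMT2D-KD. Covered bases were at least 1.5-fold higher in KMT2D-KD at 5 of the 6 members with an interval, against 65.9% of all 17332 windows with an interval. They were at least 1.5-fold lower at 0 of these 6, against 5.65%. FOXA3 is counted among the 5 with no NC interval and so without a fold. Without the intervals whose summits lay in repeated sequence, 4 of 6 members were at least 1.5-fold higher. The count was 3 of 6 within 50 kb of the 5′ end, and also with intervals within 1000 bases merged. With 100 kb flanks it was 6 of 7. Among intervals whose nearest protein-coding 5′ end was the member's own it was 2 of 5, GATA6 and SOX9. The share of all windows was not computed for these settings.

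**Figure D1:**
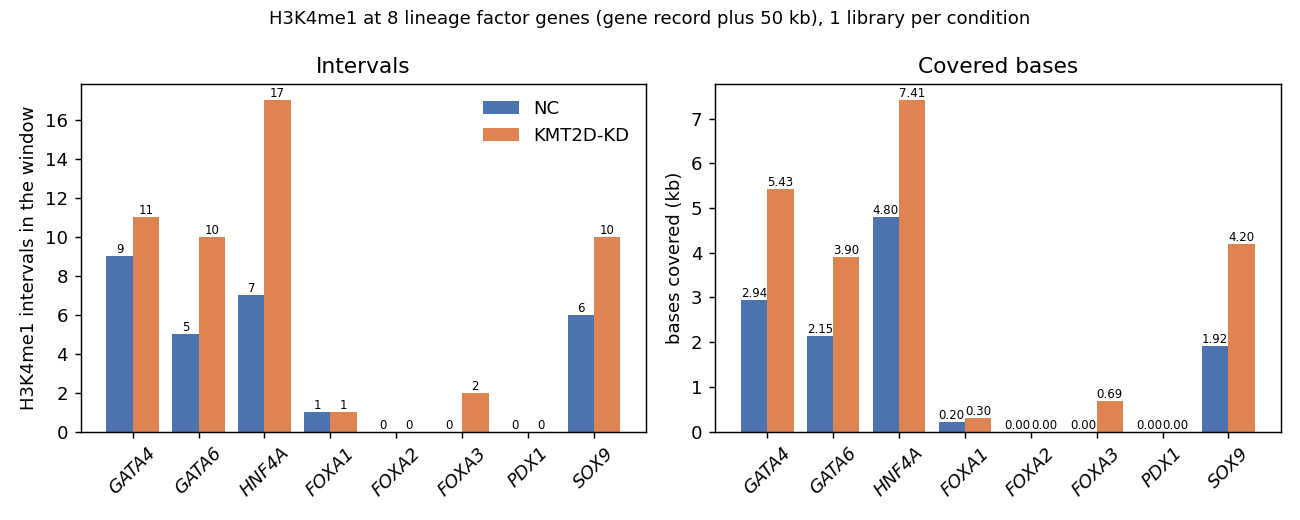
Number of H3K4me1 intervals (left) and bases covered in kb (right) in the window of each gene, in NC (blue) and KMT2D-KD (orange), with 1 library per bar and so no error bars. HNF4A had the most intervals in KMT2D-KD (17, against 7 in NC), and FOXA2 and PDX1 had none in either list.

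GATA6, a factor of early endoderm that in human development is needed for the pancreas, had intervals in 2 places. GATA6 lies on the plus strand at chr18:22169589-22202528, and no other protein-coding gene is in its window of 132.9 kb. The NC list had 3 intervals inside the gene, with summits 14.1, 15.0 and 17.3 kb from the 5′ end, and 2 downstream, at 54.0 and 54.6 kb, within the non-coding gene ENSG00000264825. Each of these 5 was found again in KMT2D-KD. Their NC fold enrichments over input at the summit were 4.56, 5.97, 3.86, 4.92 and 4.56, and the KMT2D-KD values at the same places were 5.69, 4.17, 4.93, 4.55 and 5.69. The values were higher in KMT2D-KD at 3 places and lower at 2, and in each pair the counting intervals overlapped.

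The KMT2D-KD list held 5 further intervals at GATA6, which brought the count from 5 to 10 and the covered bases from 2147 to 3903 (1.82-fold). Among intervals with a −log10 q of at least 5, the window had 300 bases in NC and 2026 in KMT2D-KD, from 1 and 3 intervals (log2 2.76). The same q stood for different p-values in the 2 lists. At HNF4A, a −log10 p of 8.045 gave a −log10 q of 4.934 in NC, and 8.046 gave 5.316 in KMT2D-KD. With a −log10 p of at least 5 instead, the GATA6 window had 2147 and 3328 bases (log2 0.63). Of the 5 further intervals, 1 was within the group inside the gene, at 15.6 kb. The other 4 lay downstream, at 44.2, 57.2, 60.1 and 61.7 kb. The interval at 57.2 kb, also within ENSG00000264825, was the widest of the window, at 953 bases. It had a fold enrichment of 6.21 (95% counting interval 3.71 to 9.86, from 16 fragments), the highest of either list at this gene. No interval of either list lay upstream of GATA6, and the edges nearest to its 5′ end were 13.6 kb away in NC and 13.7 kb in KMT2D-KD.

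GATA4, the other GATA factor of the endoderm, was accompanied by 9 NC and 11 KMT2D-KD intervals, which covered 2939 and 5428 bases (1.85-fold). All 7 shared pairs of this window were wider in KMT2D-KD, as were 68.8% of the pairs of the whole genome. At the other members this held for 2 of 5 pairs at GATA6 and for 2 of 6 each at HNF4A and SOX9. Most intervals of the GATA4 window lay nearer to other genes. The window also holds NEIL2, a DNA repair glycosylase, and FDFT1, the squalene synthase, and in both lists only 2 intervals had the 5′ end of GATA4 as the nearest protein-coding one. These 2 covered 1011 NC bases and 952 KMT2D-KD bases, with a log2 ratio of −0.09, against 0.89 for the whole window. These 2 lay upstream of GATA4, and only the start of the gene record was counted as its 5′ end. Annotated GATA4 transcripts also start inside the gene, among them at 27.26 kb. The intron intervals described below, 205 bases in NC and 782 and 503 in KMT2D-KD, lay nearer to this start but were assigned to NEIL2. The gene record plus 20 kb, which includes them and a NEIL2 interval in KMT2D-KD, held 1216 and 2521 bases (log2 1.05). The −0.09 therefore holds for the upstream intervals and not for all intervals near GATA4 starts.

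Upstream of GATA4, the NC list had an interval at −5.97 kb with a fold enrichment of 5.02 (2.95 to 8.07). The KMT2D-KD interval that overlapped it had its summit at −5.20 kb and a fold enrichment of 3.02 (1.54 to 5.45), the largest difference towards NC among the 24 shared pairs of the 8 windows. Nearer to the gene, the lists differed in place: the NC list had an interval at −2.48 kb (fold enrichment 3.46), and the KMT2D-KD list one at −1.40 kb (5.63). Within the gene, an interval in an intron at 50.3 kb was 205 bases wide in NC and 782 in KMT2D-KD. Its fold enrichment was 4.77 in NC and 5.43 in KMT2D-KD, where a further interval followed at 51.1 kb. The largest difference towards KMT2D-KD was in NEIL2, at 109.9 kb in NC, with an NC value of 3.51 (1.80 to 6.35) and a KMT2D-KD value of 6.07 (3.57 to 9.77). These counting intervals overlapped as well.

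The HNF4A window had the most bases covered by H3K4me1 of the 8 windows in both conditions. HNF4A lies on the plus strand at chr20:44355699-44432845, and its window of 177.1 kb also holds FITM2, R3HDML and TTPAL. The 7 NC intervals covered 4799 bases, more than 82.5% of all protein-coding windows did as a share of the window. The 17 KMT2D-KD intervals covered 7413 bases, more than 79.6% did. The 1.55-fold ratio (log2 0.63) was higher than that of 39.7% of the windows with intervals in both lists. Without the intervals whose summits lay in repeated sequence it was 1.27-fold. Most intervals of the window lay nearer to the 5′ ends of other genes. Only 3 NC and 4 KMT2D-KD intervals had the start of the HNF4A record as the nearest protein-coding 5′ end. These covered 2155 and 2476 bases (1.15-fold). Under this restriction GATA6 and SOX9 had more bases in KMT2D-KD, 3903 and 4198. The background that the peak caller expected at these intervals had a median of 1.5 times the lowest of the list in both conditions, whereas at GATA6 the median was the lowest value itself. What part this had in the numbers of intervals was not tested.

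HNF4A is transcribed from a distal promoter, P2, at the 5′ end of the gene record and from a proximal promoter, P1. Annotated transcripts started within 0.106 kb of the 5′ end and again at 45.5 to 45.7 kb. The strongest intervals lay downstream of the second group. An interval at 51.5 kb, with its summit in an annotated exon and 5.77 kb from the nearest of these starts, had the highest −log10 q of the 8 windows in both lists, 9.23 in NC and 15.3 in KMT2D-KD. Its fold enrichment was 6.07 (3.90 to 9.05, 22 fragments) in NC and 8.07 (5.42 to 11.6, 27 fragments) in KMT2D-KD. Beside it, the interval with the HNF4 motif printed above had an NC value of 4.89 (3.14 to 7.29) and a KMT2D-KD value of 5.34 (3.56 to 7.74). On the other side of these starts, an interval at 42.0 kb had 4.10 in NC, and the one overlapping it at 42.5 kb had 3.70 in KMT2D-KD. The edges nearest to the distal 5′ end were 32.1 kb away in NC and 30.25 kb in KMT2D-KD.

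A further group lay upstream of HNF4A, between R3HDML and FITM2. The NC list had 3 intervals there, at −35.3, −34.1 and −32.6 kb, and the KMT2D-KD list had 7, from −36.3 to −30.6 kb. All of them lay nearer to the 5′ end of FITM2 or R3HDML than to that of HNF4A. The KMT2D-KD interval at −31.2 kb had no NC counterpart, although its fold enrichment of 6.41 (4.04 to 9.74, 20 fragments) was second only to that at 51.4 kb among the 51. Its −log10 q of 9.70 exceeded that of 92.3% of the KMT2D-KD list. A neighbour at −33.4 kb, also in KMT2D-KD alone, had a fold enrichment of 5.89. The NC interval at −34.1 kb was the only one at HNF4A without a KMT2D-KD counterpart and had the lowest fold enrichment of the 28, 3.12 (1.598 to 5.65, 9 fragments). The other KMT2D-KD intervals without an NC counterpart were at −45.6, 54.1, 66.4, 94.1, 94.8 and 101.3 kb, beside those at −36.3 and −30.6 kb, and had fold enrichments of 2.49 to 4.61.

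With intervals as listed and 50 kb flanks, SOX9 had the largest ratio of covered bases among the members with intervals in both lists. It lies on the plus strand at chr17:72121020-72126416, with no other protein-coding gene in its window. The 6 NC intervals covered 1921 bases and the 10 KMT2D-KD intervals 4198 bases, a 2.19-fold ratio (log2 1.13). This ratio was higher than that of 65.7% of the protein-coding windows with intervals in both lists. When intervals within 1000 bases of each other were merged, the gaps included, the log2 ratio was 0.47. Among intervals with a −log10 q of at least 5 it was 2.29, from 1 NC interval of 429 bases and 5 KMT2D-KD intervals that covered 2092. With a −log10 p of at least 5 instead, which is the same cut in both lists, it was 1.45, from 4 NC and 9 KMT2D-KD intervals. All 6 NC intervals lay at the 3′ end of the gene or downstream of it, in 2 groups at 4.81 to 6.78 kb and 13.9 to 15.7 kb. The first interval overlapped an exon of SOX9. Each of the 6 was found in KMT2D-KD, 2 of them within a single wider interval of 959 bases.

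In the second SOX9 group, the NC fold enrichments of 5.22, 3.41 and 3.98 stood beside KMT2D-KD values of 5.004, 3.71 and 5.34, which differed by less than their counting intervals. The 5 KMT2D-KD intervals without an NC counterpart were at −31.1, −9.42, 5.50, 31.1 and 45.6 kb, so upstream intervals were listed in KMT2D-KD alone. The one at −9.42 kb was 872 bases wide, with a fold enrichment of 6.07 (3.57 to 9.77, 15 fragments). That at 5.50 kb had 5.69, and the other 3 had 3.62 to 3.69, from 9 to 11 fragments. All intervals of the SOX9 window lay within the annotated span of the antisense gene SOX9-AS1, and ChIP-seq does not tell the strands apart.

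**Figure D2:**
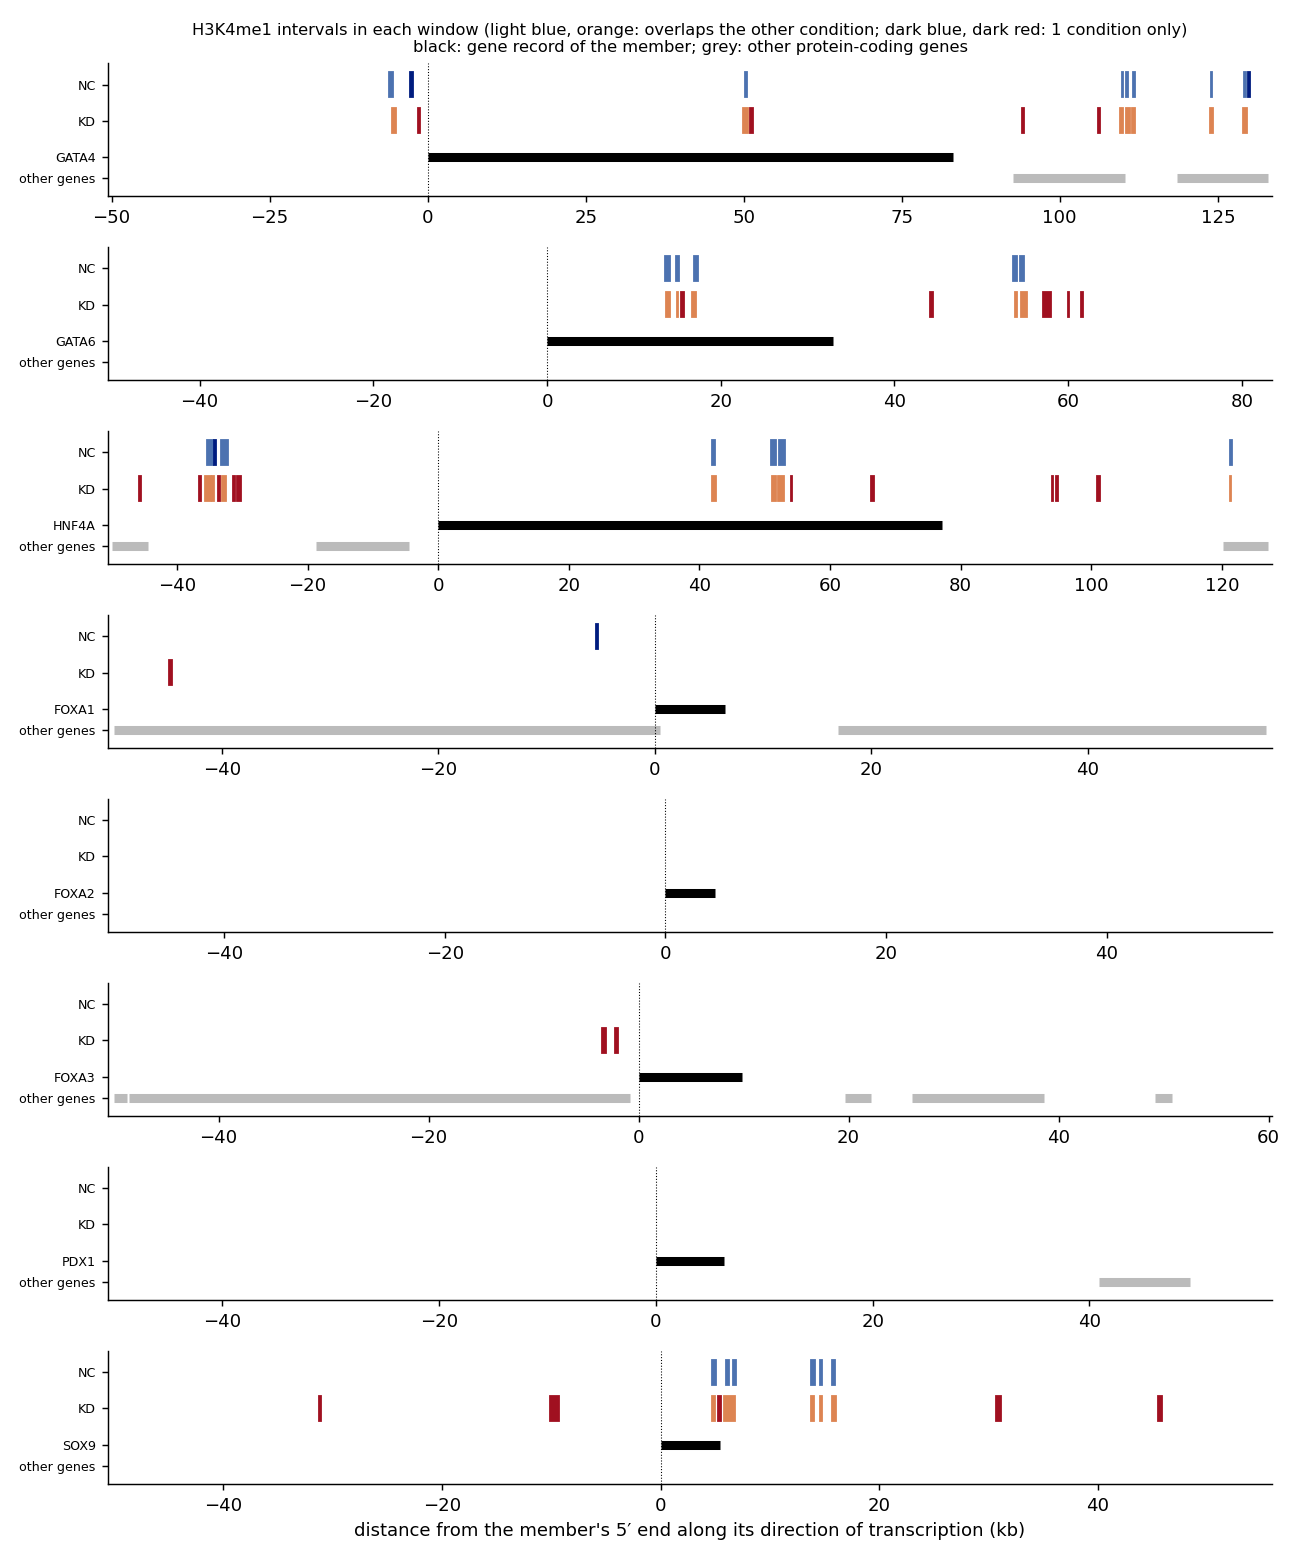
H3K4me1 intervals of NC (upper line of each panel) and KMT2D-KD (lower line) drawn by distance from the 5′ end of each gene in kb, to scale apart from a thin outline, with the gene record in black and other protein-coding genes in grey. Intervals found in both lists are light blue or orange, and those in 1 list are dark blue or dark red. At GATA6 and SOX9 the NC intervals recur in KMT2D-KD with others added around them.

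The forkhead genes had little H3K4me1 in these lists. FOXA1, on the minus strand at chr14:37589552-37596059, had 1 NC interval at −5.41 kb and 1 KMT2D-KD interval at −44.8 kb, both within TTC6, whose record overlaps the first 0.43 kb of FOXA1 and runs in the other direction. They were 204 and 302 bases wide, had fold enrichments of 3.51 (1.79 to 6.34, 9 fragments) and 4.17 (2.20 to 7.36, 10 fragments), and did not overlap. FOXA3, on the plus strand at chr19:45863989-45873797, had no NC interval within 53.9 kb of its 5′ end. The KMT2D-KD list had 2, at −3.30 and −2.01 kb, which covered 689 bases with fold enrichments of 3.65 and 4.41. Both were in the body of SYMPK, a factor of pre-mRNA 3′ end processing, and nearer to the SYMPK 5′ end than to that of FOXA3. At FOXA2, on the minus strand at chr20:22580998-22585455, the nearest edges were 68.5 kb from the 5′ end in NC and 68.7 kb in KMT2D-KD. At PDX1, at chr13:27920000-27926313, they were 241.2 and 261.2 kb away, and neither PDX1 nor its neighbour CDX2, an intestinal homeodomain factor, had an interval in its window.

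An absent interval is limited by depth. The fragments behind each interval were recovered from the deposited fold enrichments and p-values. At the lowest background of each list, 8 fragments in NC and 7 in KMT2D-KD were the fewest that gave an interval, which corresponds to fold enrichments of 3.16 and 3.04. The smallest −log10 p was 3.30 in the NC list and 3.12 in the other. The recovered depth was 9.89 fragments per 1000 bases in NC and 9.29 in KMT2D-KD. At the members, NC summits had 9 to 22 fragments and KMT2D-KD summits 8 to 27, with a median of 12 in both. Weaker H3K4me1 at FOXA2, PDX1 or elsewhere was not detectable at this depth.

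No member had an interval at its promoter, taken as 1000 bases on either side of the 5′ end, in either list. In all, 6.44% of protein-coding genes had one in NC and 11.9% in KMT2D-KD. Within 3000 bases there was 1 member in NC (GATA4) and 2 in KMT2D-KD (GATA4 and FOXA3). By position, 6 NC intervals were upstream of their gene, 8 within it and 14 downstream, and the KMT2D-KD intervals were 15, 12 and 24. Within 10 kb of a 5′ end there were 6 intervals in NC and 8 in KMT2D-KD. Only 3 NC and 4 KMT2D-KD summits were in an exon of a member. The larger share of genes with a promoter interval in KMT2D-KD stands beside a different statement of the authors. From ChIP-seq they reported prominently lower signals of KMT2D, H3K4me1 and EBF2 at start sites and promoters in KMT2D-KD cells. They reported the same from CUT&Tag. A number of intervals is a different measure from signal, and signal was not examined here.

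To describe how far the lists named the same places, overlaps were counted in both directions. Of the 28 NC intervals, 24 (85.7%, exact binomial 95% interval 67.3% to 96.0%) were found in KMT2D-KD, against 69.7% of the whole NC list. Conversely, 24 of the 51 KMT2D-KD intervals (47.1%, 32.9% to 61.5%) overlapped an NC interval, compared with 46.6% of the whole KMT2D-KD list. The 4 NC intervals without a counterpart were 2 at GATA4, 1 at HNF4A and 1 at FOXA1. The 27 such KMT2D-KD intervals were 10 at HNF4A, 5 each at GATA6 and SOX9, 4 at GATA4, 2 at FOXA3 and 1 at FOXA1. Intervals without a counterpart had lower median fold enrichments, 3.48 against 4.56 in NC and 3.77 against 4.80 in KMT2D-KD. They were also narrower, with medians of 250 against 388 bases in NC and 337 against 441.5 in KMT2D-KD.

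At the places both lists named, the enrichment differed in both directions. Of the 24 pairs, the fold enrichment was higher in KMT2D-KD in 14 and lower in 10, and the counting intervals overlapped in every pair. These intervals were wide and overlapped even at KMT2D-KD to NC ratios of 0.60 and 1.73, so their overlap does not show equal enrichment. Pairs also hold only places that passed the peak caller in both lists. The median log2 ratio was 0.12, with a range of −0.73 to 0.79. Among the 45195 NC intervals of the whole genome with a KMT2D-KD counterpart, 69.1% had the higher value in KMT2D-KD and the median log2 ratio was 0.22. KMT2D-KD intervals were wider in 13 of the 24 pairs and in 68.8% of all pairs. Over all intervals of the 8 windows, median widths were 364 bases in NC (range 204 to 1049) and 352 in KMT2D-KD (185 to 1038). Median fold enrichments were 4.56 (3.12 to 6.07) and 4.42 (2.49 to 8.07).

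**Figure D3:**
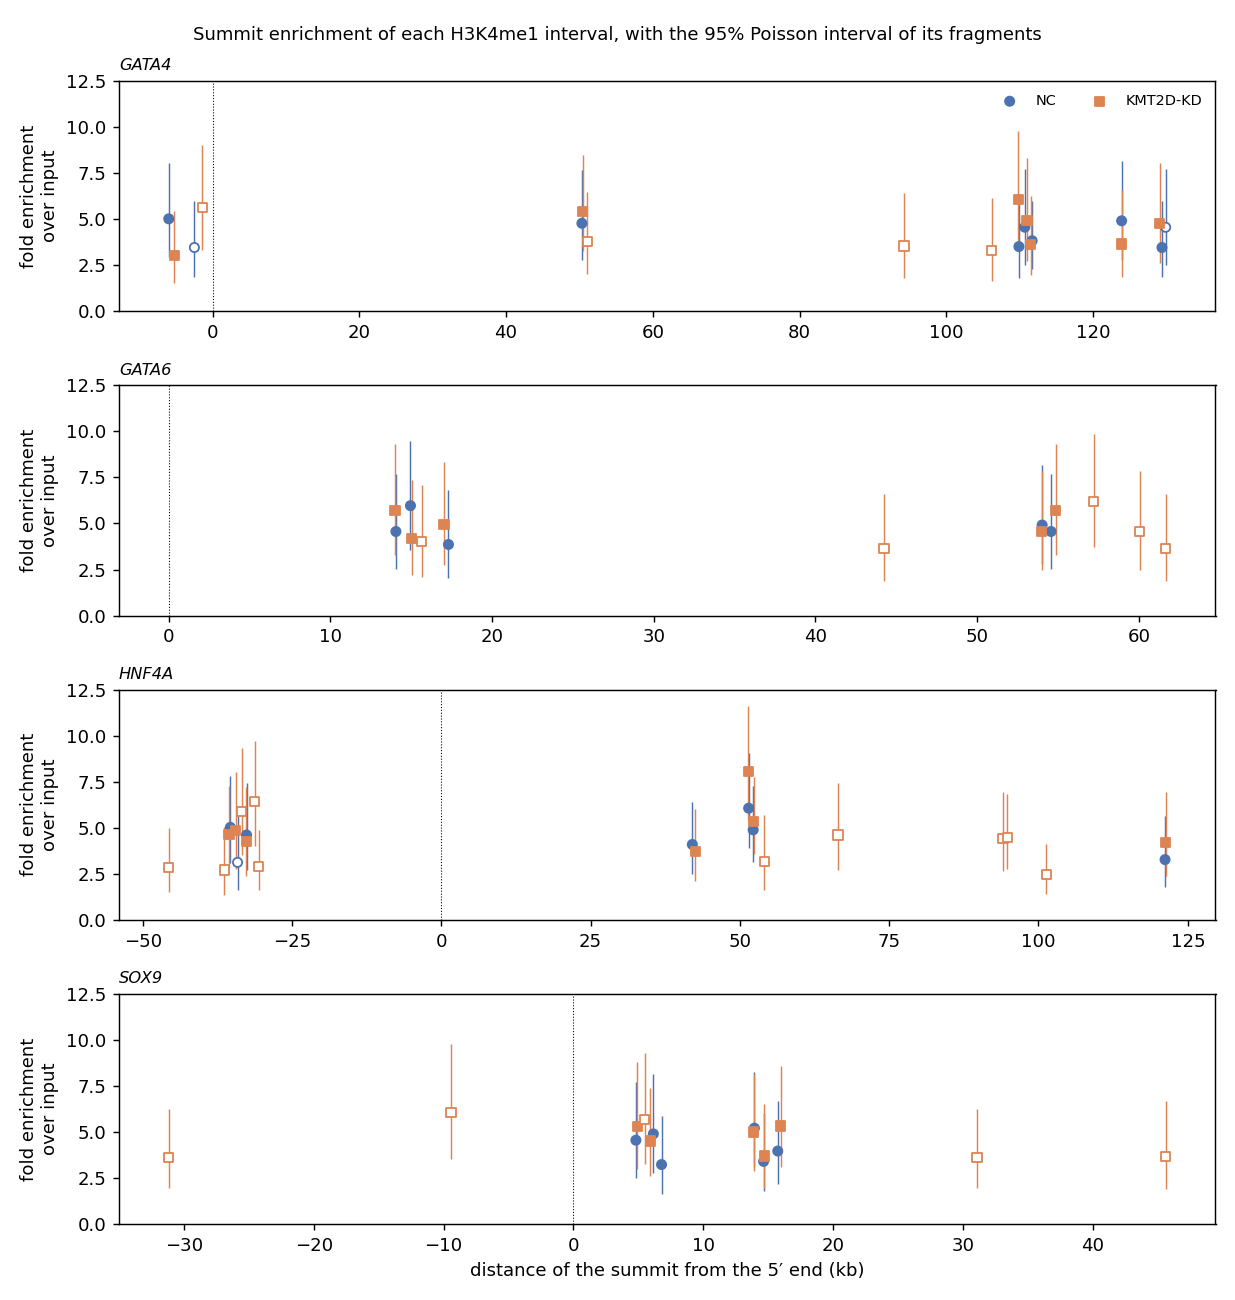
Fold enrichment over input at the summit of each H3K4me1 interval against distance from the 5′ end in kb at GATA4, GATA6, HNF4A and SOX9, for NC (blue circles) and KMT2D-KD (orange squares). Bars are 95% Poisson intervals of the recovered fragments, and open symbols mark intervals found in 1 list; the bars overlap at each of the 24 shared places.

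**Figure D4:**
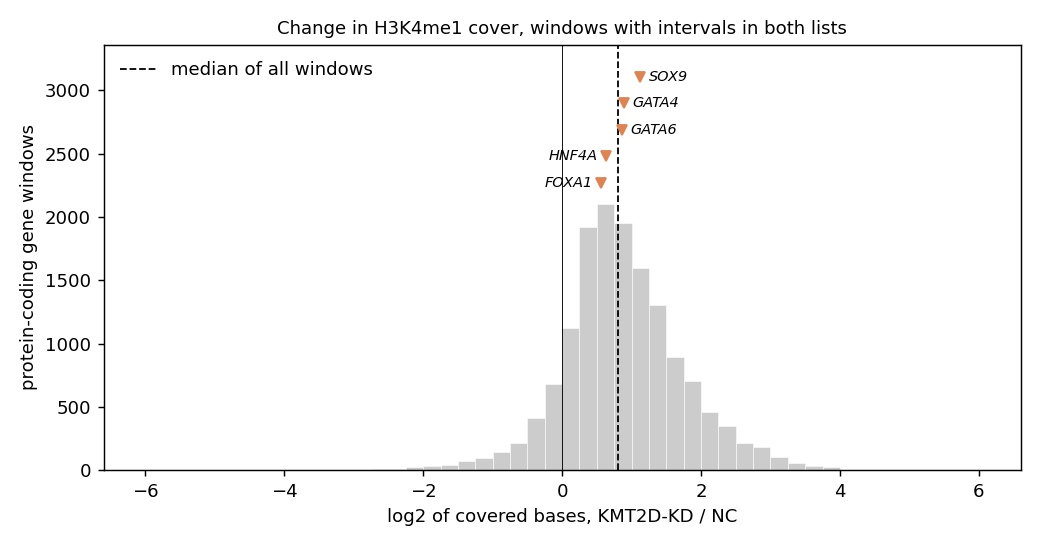
Number of protein-coding gene windows by log2 ratio of covered bases, KMT2D-KD over NC, for the 14758 windows with intervals in both lists. The dashed line is their median, 0.81, and triangles mark the 5 members, from 0.57 at FOXA1 to 1.13 at SOX9, which all lie between the quartiles of 0.37 and 1.36.

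Repeated sequence was present under part of the intervals. A 200-base summit window was counted as repeated when over 50% of its 24-base words occurred at more than 1 place in hg38, a measure chosen after the intervals had been seen. This held for 5 of the 28 NC windows (17.9%, 6.06% to 36.9%) and 10 of the 51 KMT2D-KD windows (19.6%, 9.82% to 33.1%). In 500 intervals drawn from each whole list the shares were 12.2% in NC and 17.4% in KMT2D-KD. At GATA4 the windows at −5.97 and −2.48 kb in NC and at −1.40 kb in KMT2D-KD were among them, so 3 of the 4 summits upstream of this gene were in repeated sequence. At HNF4A, 4 of the KMT2D-KD windows of the upstream group were repeated, and that at −31.2 kb held 0 repeated words. The FOXA3 window at −2.01 kb was repeated too. How multiply mapped reads were treated was not given in the sources used here, and the part of repeats in these intervals was not tested. Without the repeated windows, 23 NC and 41 KMT2D-KD intervals remained at the 8 genes, and covered bases differed by 0.88 in log2. The ratios of single genes moved in both directions. That of GATA4 was then 3.37-fold (1370 and 4616 bases) and that of HNF4A 1.27-fold (4334 and 5490 bases), while FOXA3 kept 1 KMT2D-KD interval.

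Short motifs of the members' own families were counted in the same 200-base windows, on both strands. In NC, the GATA letters AGATAA occurred in 4 of 28 windows (14.3%) and in 13.0% of the whole list. The FOX letters TGTTTAC occurred in 2 (7.14%, list 3.17%), the HNF4 letters CAAAGTC in 2 (7.14%, list 3.41%), the SOX letters ACAATGG in 1 (3.57%, list 2.80%) and the homeodomain letters TAATTA in 2 (7.14%, list 6.12%). In KMT2D-KD, AGATAA occurred in 3 of 51 windows (5.88%, list 11.5%), TGTTTAC in 2 (3.92%, list 2.74%), CAAAGTC in 1 (1.96%, list 3.19%), ACAATGG in 1 (1.96%, list 2.596%) and TAATTA in 2 (3.92%, list 5.04%). The exact binomial interval of each share included the share of its list. GATA letters were found under 2 of the 5 GATA6 intervals of NC, at 17.3 and 54.0 kb, and HNF4 letters under the HNF4A interval at 52.2 kb. No motif overlapped another in the printed sequences. A match of letters is a description of the sequence and not of binding.

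The KMT2D and EBF2 lists had 0 intervals in the 8 windows, in both conditions. Few windows of any protein-coding gene held one: 1.25% for KMT2D and 1.32% for EBF2 in NC, and 1.57% and 1.68% in KMT2D-KD. These lists hold 238 and 293 intervals in NC and 318 and 311 in KMT2D-KD, and a count of 0 allows a share of up to 1.26%, 1.02%, 0.943% and 0.965% of them. The nearest interval was 1.03 Mb from the SOX9 5′ end in both KMT2D lists and the NC EBF2 list. In the KMT2D-KD EBF2 list the nearest was 0.177 Mb from the FOXA2 5′ end.

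Among 16 other factors of the endoderm and pancreas, 8 had no interval in either list, against the 13.4% of all windows given above. These were HNF4G, ONECUT1, PROX1 and CDX2, and the endocrine factors NKX6-1, NKX2-2, NEUROG3 and NEUROD1. Covered bases were at least 1.5-fold higher in KMT2D-KD at SOX17 (1074 bases in NC and 2660 in KMT2D-KD), ISL1 (973 and 2757) and MNX1, which had 1293 bases in KMT2D-KD alone. They were lower at HHEX, an early foregut factor, with 1499 bases in NC and 953 in KMT2D-KD. ONECUT2 and PAX6 were within 1.5-fold. In the same kind of window, the ductal and epithelial genes KRT19, KRT7, EPCAM and MUC1 were covered to 7.86% in NC and 12.7% in KMT2D-KD. The corresponding shares were 2.15% and 3.54% for the acinar genes CPA1, PRSS1 and CEL, with PRSS1 at 0, and 0.488% and 1.02% for the endocrine genes INS, GCG and CHGA. Of the blood cell genes, PTPRC was covered to 0.821% in NC and 0.893% in KMT2D-KD, and CD3E to 0.869% and 1.83%. The pooled ductal genes thus had the largest cover of these 3 groups in both lists. KRT7 alone made up 47 of their 62 NC intervals. Single ductal genes differed widely. KRT7 was covered to 23.2% in NC and 35.7% in KMT2D-KD, MUC1 to 6.74% and 9.76%, and KRT19 to 1.83% and 3.76%. EPCAM was covered to 0.287% in NC and 2.02% in KMT2D-KD. In NC, EPCAM was below CPA1, CEL (0.856%), GCG (1.11%) and CHGA (0.323%), and above PRSS1 and INS, which had no interval. In the acinar group, CPA1 alone was covered to 5.54% in NC and 8.49% in KMT2D-KD.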

How the data were processed

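ChIP-seq for KMT2D, EBF2 and H3K4me1 was performed in NC and KMT2D-KD SW1990 cells, with groups taken from the sample titles. The authors removed reads with adapters, undetermined or low-quality bases by in-house perl scripts before alignment with bwa. The submitters' processing notes also name MACS2, HOMER and hg38, with no versions. The condition of the input's cells was not given. In the 6 deposited lists the authors gave each interval a fold enrichment over input at its summit, −log10 p, −log10 q and a score, which was not used. Replicates did not exist, so no test was made.

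Fragments and background were solved from fold enrichment, (fragments + 1) / (background + 1), and the Poisson p-value. All 4000 intervals drawn per H3K4me1 list gave whole fragments within 0.001 in −log10 p. The lowest background divided by the narrowest interval gave the depth. Overlap required 1 base, and an NC interval was paired with the overlapping KMT2D-KD interval of highest fold enrichment. Windows of all 20007 protein-coding genes served as background. The members, the other factors and the marker genes were chosen with earlier results of these data known. Part of the gene lists and sequences is not reported here. The intervals named per gene were those with the highest −log10 q, the nearest to the 5′ end, the widest and those in 1 list, and others were added after their values were seen. Scripts used Python 3.11.15, numpy 2.4.6, pandas 2.3.3, scipy 1.17.1 and matplotlib 3.10.9, and were tested on simulated data.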

Additional observations from a re-analysis of the deposited data

How the results depend on the processing

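Of the values of the whole set recomputed under alternatives, 81 of 93 stayed close to the reported value. Close meant within its counting interval or, for covered bases and counts of genes, within 1.5-fold of it. Part of these 81 could not move. Leaving out the FOXA2 or PDX1 window, which held no interval, returned the same values, and stricter cuts could not raise a promoter count of 0. A turn of direction was looked for only in interval counts and covered bases, and 0 of these values turned. Raising the −log10 q to 5 or more in the 2 lists left 30% of KMT2D-KD intervals found in NC, although the same q stood for different p-values in the lists. With a −log10 p of at least 5 in both, the share was 46.15%. With a fold enrichment of at least 5, the lists had 5 and 15 intervals (log2 1.58), of which 40% and 13.3% were shared. Counting intervals within 1000 bases as shared gave 96.4% of NC and 62.7% of KMT2D-KD intervals. The shares of the whole lists under these settings were not computed, so whether they moved alike is not known. Promoters of 3000 bases on either side held an interval at 1 member in NC and 2 in KMT2D-KD. The share of all windows with higher cover in KMT2D-KD was 46.7% at 2-fold (2 of 6 members), 76.2% at a −log10 q of at least 5 (4 of 4), 77.7% at a fold enrichment of at least 5 (3 of 4) and 48.0% with the KMT2D-KD list shortened to the length of the NC list by −log10 q (3 of 6).

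The log2 ratio of interval counts included 0 in its counting interval with the lists at equal length (0.48, −0.26 to 1.23), with 20 kb flanks (0.70, −0.25 to 1.70), within 50 kb of the 5′ end (0.91, −0.01 to 1.88) and without the HNF4A window (0.70, −0.13 to 1.55). It also did among intervals nearest to a member's own 5′ end (0.67, −0.26 to 1.64), where the log2 ratio of GATA4 covered bases turned to −0.087. In that restriction only the start of each gene record counted as a 5′ end, so intron intervals of GATA4 nearer to a later GATA4 transcript start were left out. Of 50 values of single genes and of the share of windows with lower cover, 38 stayed and 11 moved, among them FOXA1 with 100 kb flanks (log2 1.29) and GATA6 and SOX9 at a fold enrichment of at least 5 (log2 2.76 and 2.29). The restriction to intervals nearest to a member's own 5′ end, a −log10 p of at least 5 and the removal of repeated windows were chosen after seeing the data. At equal length, the GATA4 window held 9 NC and 7 KMT2D-KD intervals. No paired analysis was possible because there was 1 library per target and condition.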
